A study of Mus musculus with 6 samples.

Results

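Host genes that gave 2 or more circular RNAs (circRNAs) were examined in the hippocampus. They were taken from the probe annotation of the circRNAs that the study listed as higher on average in the surgery group, of which 1257 could be read. A gene was kept when its symbol named 2 or more different circRNAs there and it did not lie on chromosome X or Y. This gave 144 host genes with 306 circRNAs, of 1025 host genes and 1187 circRNAs on the other chromosomes. Of the 144 hosts, 126 had 2 circRNAs and 18 had 3, and the remaining 881 hosts had 1 each. The 1257 circRNAs are those whose probe sequence comes first in alphabetical order, and each of these probes starts with A. A host can therefore have further circRNAs that were not analysed here.

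RNA came from the hippocampus of 6 male C57BL/6J mice aged 12 months, with each array taken as 1 mouse, so that p-values measure the spread between these 6 samples. In the surgery group (n = 3) the left tibia was fractured and fixed with an intramedullary nail under isoflurane with an analgesic given in the labels as butorphenol, and in the control group (n = 3) the mice received this anesthesia and analgesia without the operation. The tissue was taken after 72 h. The paper states that every mouse also went through behavioral testing. This was fear conditioning with tone and electric shock before surgery, and contextual, cued and open field tests on day 3. Linear RNA was digested with RNase R, an exonuclease that degrades RNA with free ends, before the rest was labeled and hybridized to an Arraystar mouse circRNA array. Levels are given as log2 intensity of 1 probe after quantile normalization. In whole tissue, fewer cells of a type and less RNA per cell cannot be told apart.

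A circRNA forms by back-splicing, in which a splice donor is joined to an acceptor that lies upstream of it, so that the exons between them close into a ring without free ends. A single gene can give several rings when different donors or acceptors are used, and each ring has its own back-splice junction. CircRNAs are abundant in brain, many come from genes of the synapse, and their lack of ends makes them long lived. An array probe for a circRNA spans the junction, so a probe carries sequence from both sides of it. Most circRNAs that share a donor or acceptor end therefore also share part of their probes.

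Of the 306 circRNAs, 254 were listed as exonic, 35 as sense overlapping, 12 as intronic and 5 as antisense. In 104 of the 144 hosts every circRNA was exonic. The genomic span from acceptor to donor ranged from 73 to 517760 bases with a median of 16507.5, and the median in hosts with 1 circRNA was 11140. The hosts lay on 19 chromosomes, with 16 each on chromosomes 2 and 4 and 12 each on chromosomes 1 and 3. Start and end positions are those of the annotation, which fit the GRCm38 build, since 299 of 302 circRNAs with a RefSeq gene of the same name lay inside that gene.

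The 306 circRNAs form 180 pairs of the same host, and these fall into 5 classes. In 78 pairs the rings did not overlap, and in 62 they overlapped without a common end. The acceptor end was common in 19 pairs and the donor end in 14, with ends counted as common when they lay within 3 bases. In 7 pairs both ends were common, so that 2 names stand for nearly the same junction. The probes, each 60 bases long, shared a run of 20 or more bases in 30 pairs and of 13 to 19 bases in 9 pairs. Among the 140 pairs without a common end the median of the longest run was 6 bases and the maximum 10. No pair from different hosts shared 20 bases, with 0 found among 46485.

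The 7 pairs with both ends in common are shown first, because they give the same junction measured by 2 probes. Capitals mark the longest run that the 2 probes of a pair share, and sequences read 5′ to 3′ as in the annotation.
Tcf20 mmu_circRNA_19146: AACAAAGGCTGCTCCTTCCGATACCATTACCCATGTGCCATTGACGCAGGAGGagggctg
Tcf20 mmu_circRNA_000890: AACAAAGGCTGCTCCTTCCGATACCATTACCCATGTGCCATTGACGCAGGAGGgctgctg
Jmjd1c mmu_circRNA_18986: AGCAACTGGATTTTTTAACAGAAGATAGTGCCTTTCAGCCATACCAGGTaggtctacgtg
Jmjd1c mmu_circRNA_018701: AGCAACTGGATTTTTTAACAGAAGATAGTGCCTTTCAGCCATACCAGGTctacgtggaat
Rfwd2 mmu_circRNA_001878: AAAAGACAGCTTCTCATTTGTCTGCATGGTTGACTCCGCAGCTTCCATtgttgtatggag
Rfwd2 mmu_circRNA_18959: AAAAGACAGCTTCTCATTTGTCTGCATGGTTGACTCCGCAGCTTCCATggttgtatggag
Clasp2 mmu_circRNA_19534: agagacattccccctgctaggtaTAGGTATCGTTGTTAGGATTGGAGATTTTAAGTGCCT
Clasp2 mmu_circRNA_004670: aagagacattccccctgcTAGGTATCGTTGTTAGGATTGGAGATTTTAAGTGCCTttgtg
Ash1l mmu_circRNA_19293: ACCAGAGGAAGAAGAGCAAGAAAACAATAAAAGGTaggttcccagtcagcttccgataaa
Ash1l mmu_circRNA_009027: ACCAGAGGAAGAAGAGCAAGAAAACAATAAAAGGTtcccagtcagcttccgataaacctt
Mpp6 mmu_circRNA_19418: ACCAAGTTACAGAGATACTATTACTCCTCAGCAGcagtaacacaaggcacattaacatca
Mpp6 mmu_circRNA_010146: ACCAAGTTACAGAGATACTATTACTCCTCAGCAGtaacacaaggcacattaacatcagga
Elf2 mmu_circRNA_005039: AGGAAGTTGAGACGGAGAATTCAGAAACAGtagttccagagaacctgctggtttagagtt
Elf2 mmu_circRNA_19280: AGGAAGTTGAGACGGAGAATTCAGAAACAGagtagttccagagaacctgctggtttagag

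In 5 of these 7 pairs the probes matched without a mismatch once 2 to 6 bases were left out of 1 of the probes. These were Ash1l, Jmjd1c, Clasp2, Mpp6 and Elf2. The Rfwd2 probes differed at 1 base and the Tcf20 probes at 3 bases when aligned end to end. In all 7 pairs the listed ends differed by 0 to 3 bases. Tcf20 lay at chr15:82825229-82857286, Jmjd1c at chr10:67157904-67189851, Rfwd2 at chr1:159340282-159340422, Clasp2 at chr9:113761586-113773780, Ash1l at chr3:89001770-89007879, Mpp6 at chr6:50143715-50163649 and Elf2 at chr3:51308049-51326035, each given for the first probe. The Rfwd2 pair, from the ubiquitin ligase gene now named Cop1, was listed as antisense.

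Pairs with 1 common end mostly share part of the probe, again in capitals, and differ on the other side of the junction. The exception was Cdc14a, whose probes shared a longest run of 10 bases. Gpr158, an orphan receptor, is shown for a common donor end, and Rlf, a zinc finger protein, for a common acceptor end.
Gpr158 mmu_circRNA_33111: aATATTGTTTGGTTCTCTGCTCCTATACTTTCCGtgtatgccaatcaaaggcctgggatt
Gpr158 mmu_circRNA_33112: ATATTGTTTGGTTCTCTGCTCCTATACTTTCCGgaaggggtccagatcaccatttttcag
Rlf mmu_circRNA_37545: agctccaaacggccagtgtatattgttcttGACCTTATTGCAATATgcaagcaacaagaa
Rlf mmu_circRNA_003194: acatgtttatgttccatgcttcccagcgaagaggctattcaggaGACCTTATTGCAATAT

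Pairs without a common end have unrelated probes and are shown without capitals. Stxbp5l, also called tomosyn-2, holds back vesicle fusion, and Ankra2 is an ankyrin repeat protein. Both recur in the comparison of surgery with control.
Stxbp5l mmu_circRNA_29656: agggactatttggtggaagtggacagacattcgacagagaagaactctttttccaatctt
Stxbp5l mmu_circRNA_29678: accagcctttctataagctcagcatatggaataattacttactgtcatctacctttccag
Ankra2 mmu_circRNA_26813: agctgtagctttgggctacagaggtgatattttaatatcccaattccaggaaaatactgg
Ankra2 mmu_circRNA_26814: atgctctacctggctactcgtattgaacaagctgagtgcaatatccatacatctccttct

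Each array held 15712 spots, of which 14236 were circRNA probes, and 12499 of these were detected on at least 3 of 6 arrays and tested. All 306 circRNAs were among the tested probes. Well above background were 11997 to 13009 circRNA probes per array after surgery, 9257 on control replicate 1 and 11925 to 12277 on the other controls. Of the 306 circRNAs, 296 to 306 were well above background on a surgery array, 235 on control replicate 1, 294 on control replicate 2 and 288 on control replicate 3. Surgery replicates 2 and 3 lay in slide row 2, and the other 4 arrays in slide row 1. Control replicate 1 thus had the fewest detected probes, and its part in the results is given only by leaving it out.

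On the control arrays, 4 of the 306 circRNAs were not well above background at all, 21 were so on 1 array, 47 on 2 and 234 on all 3. The 4 were mmu_circRNA_34586 of Atrn, mmu_circRNA_36807 of Zfp462, mmu_circRNA_22153 of Jmjd1c and mmu_circRNA_37247 of Jak1, a kinase of cytokine receptors. They were tested only because the surgery arrays detected them, so nothing is read from their being higher there.

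The circRNAs of these hosts were mostly dim, with a few bright exceptions. Their mean log2 intensity over the 6 arrays had a median of 6.17 (quartiles 5.68 and 6.95) and ranged from 5.02 to 12.08. In hosts with 1 circRNA the median was 5.91 (quartiles 5.54 and 6.50). All 6 arrays detected 234 of 306 circRNAs (76.5%), against 573 of 881 (65.0%) in hosts with 1 circRNA. In 86 of 144 hosts every circRNA was detected on all 6 arrays. The 5 antisense circRNAs had mean intensities from 5.34 to 5.73, and 0 of the 5 were detected on every array.

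Within a host, probe intensities could lie close together or far apart. The range between the brightest and the dimmest circRNA of a host had a median of 0.56 on the log2 scale. The narrowest range was 0.0053 in Pkn2, a protein kinase, and the widest was 5.21 in Slc8a1, the sodium-calcium exchanger. In Slc8a1 the exonic mmu_circRNA_31020 measured 10.94, 10.75 and 10.58 after surgery and 10.62, 10.60 and 10.66 in control. The intronic mmu_circRNA_31030 of the same gene measured 5.83, 5.91 and 5.53 after surgery and 5.22, 5.29 and 5.14 in control. The second was well above background on only 4 of 6 arrays, so the width of this range is uncertain. These hosts were singled out after their values were seen. Probes differ in how well they bind, so a difference in intensity between 2 probes is not a ratio of RNA amounts.

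Over the 180 pairs of one host, mean intensities differed by a median of 0.54 on the log2 scale (quartiles 0.20 and 1.17). Over the 46485 pairs of circRNAs from different hosts the median was 0.87 (quartiles 0.38 and 1.82). The GC content of the probes also lay closer within a host, with a median difference of 1.67 percentage points against 3.33 between hosts. Its part in the intensity difference was not tested. Pairs with both ends in common differed by a median of 0.062, pairs with a common acceptor end by 0.32, with a common donor end by 0.30, and pairs without a common end by 0.60.

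Values on every array show how the same-junction pairs compared. For Mpp6, a membrane-associated scaffold protein, mmu_circRNA_19418 measured 8.38, 8.54 and 8.36 after surgery and 8.44, 7.81 and 8.60 in control. Its partner mmu_circRNA_010146 measured 8.47, 8.64 and 8.43 after surgery and 8.50, 7.80 and 8.66 in control. Both probes were lowest on control replicate 2, and so was the third Mpp6 circRNA, mmu_circRNA_40255, at 6.95 there and at 7.19 to 7.28 on the other arrays.

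For Jmjd1c, a histone demethylase family member, mmu_circRNA_18986 measured 6.29, 6.12 and 6.32 after surgery and 6.02, 6.12 and 6.00 in control. The partner mmu_circRNA_018701 measured 6.48, 6.25 and 6.42 after surgery and 6.15, 6.21 and 6.12 in control. The difference of the first from the second was -0.14 ± 0.05 after surgery and -0.11 ± 0.02 in control (SD, n = 3). The second was thus the brighter on every array, and the groups of mmu_circRNA_018701 did not overlap while those of mmu_circRNA_18986 touched at 6.12.

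Of the other pairs, Tcf20, a transcriptional coregulator, differed between its probes by 0.064 in mean intensity, Elf2, an ETS family transcription factor, by 0.039, and Ash1l, a histone methyltransferase, by 0.016. Clasp2, which binds the growing ends of microtubules, differed by 0.17, the most of the 7. Rfwd2 was the dimmest, at 5.41 and 5.46, and its probes had the lowest r of the 7.

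**Figure D1:**
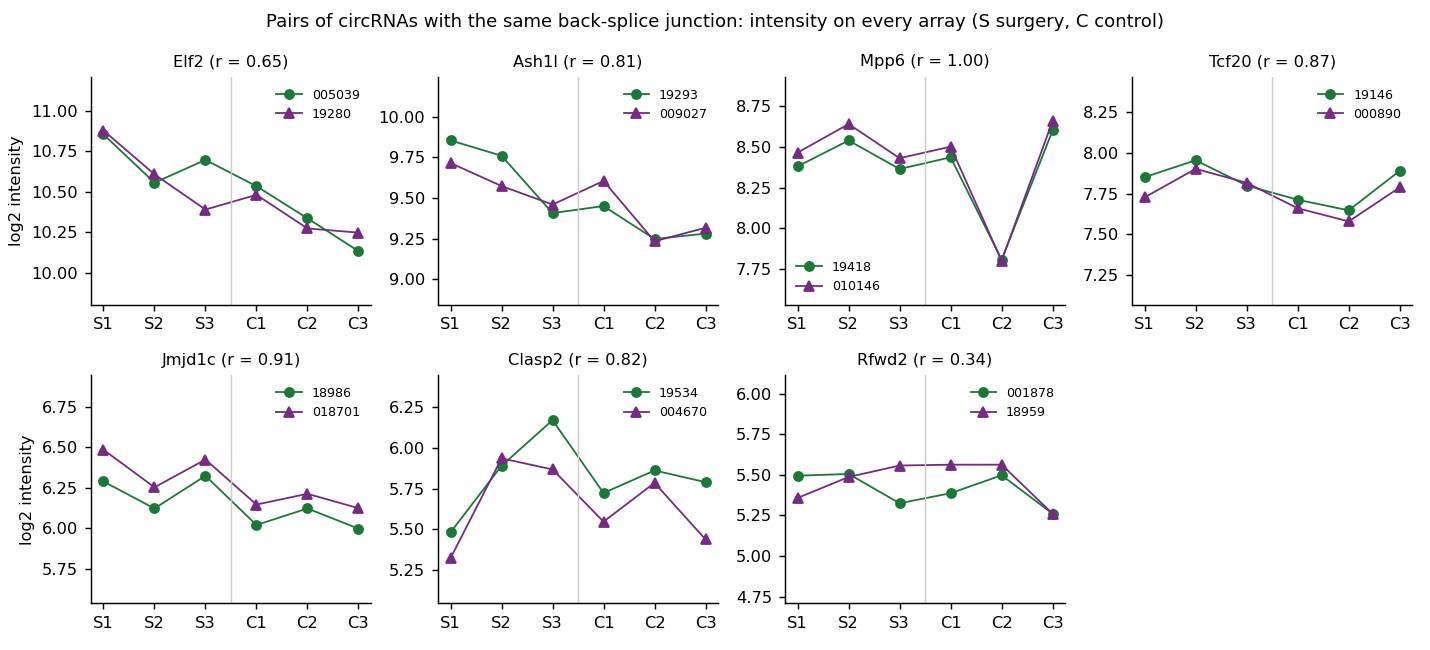
Log2 intensity (y axis, 1.4 units high in each panel) on the 3 surgery arrays (S1 to S3) and the 3 control arrays (C1 to C3) for the 7 pairs with both junction ends in common; circles and triangles are the 2 circRNAs, named by their numbers, and lines only join the points of 1 probe. Both Mpp6 probes fall on C2 (7.81 and 7.80), and the Rfwd2 probes, at 5.41 and 5.46 on average, follow each other least.

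Agreement across arrays was measured as Pearson's r over the 6 arrays after each group's mean was removed, so a shared difference between surgery and control does not enter it. With both ends in common the median r was 0.82, and 7 of 7 pairs were above 0. The 7 values were 0.34 for Rfwd2, 0.65 for Elf2, 0.81 for Ash1l, 0.82 for Clasp2, 0.87 for Tcf20, 0.91 for Jmjd1c and 0.999 for Mpp6. With a common acceptor end the median was 0.63, and 15 of 19 pairs were above 0. With a common donor end it was 0.33, and 12 of 14 were above 0.

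Pairs without a common end, whose probes share at most 10 bases, had a median r of 0.21, and 84 of 140 were above 0. It was 0.17 in the 62 pairs whose rings overlapped and 0.24 in the 78 whose rings did not. Pairs from different hosts had a median r of 0.058 (quartiles -0.37 and 0.47), and 53.6% of them were above 0. An r above 0.8 was reached by 12.1% of the pairs without a common end and by 6.80% of the pairs from different hosts.

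Each r rests on 6 arrays, and all pairs share those arrays, the normalization and control replicate 1 with its fewer detected probes, so these medians are a description without a p. Among pairs whose mean intensities differed by under 0.5, a setting added after the data were seen, the median r was 0.29 for the 63 pairs of one host without a common end and 0.078 for the 14866 pairs from different hosts.

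**Figure D2:**
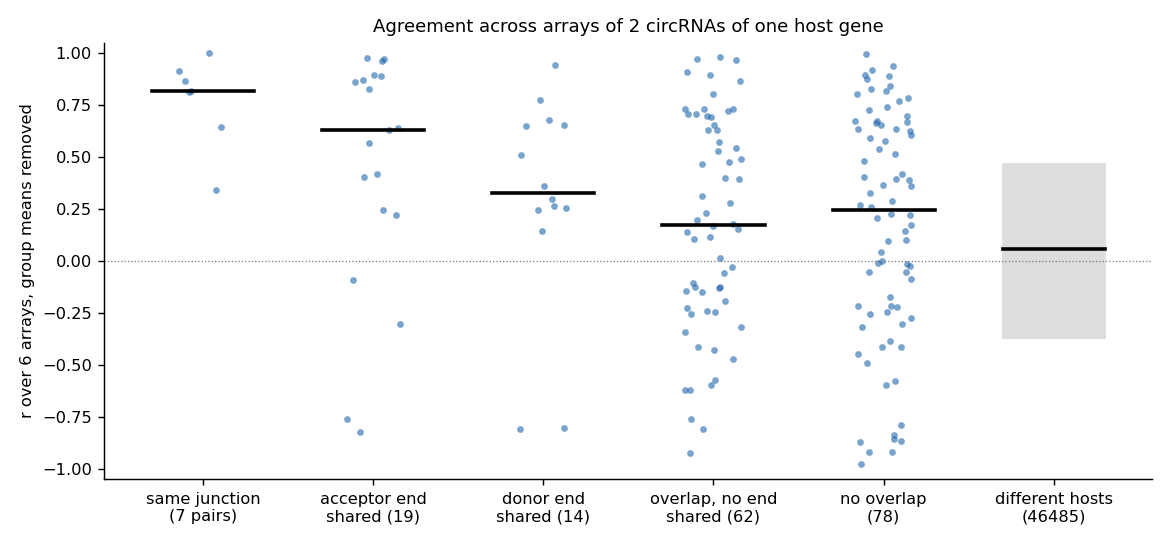
Pearson's r over 6 arrays with group means removed (y axis) for every pair of circRNAs of one host (points, spread sideways only to be seen), by how the 2 junctions relate; black lines are medians and the grey box spans the quartiles of pairs from different hosts. The median falls from 0.82 for the same junction to 0.21 without a common end and 0.058 between hosts.

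Some pairs with unrelated probes agreed closely. Grik3, a kainate receptor subunit, had an r of 0.99 between 2 rings that do not overlap, mmu_circRNA_37589 and mmu_circRNA_37590. In Adam10, a membrane protease, the r was 0.98 between mmu_circRNA_44576 and mmu_circRNA_44578, of which the second lies within the first. At the other end, the rings of Helz, an RNA helicase, had an r of -0.97. These 3 were chosen after their values were seen, and with 6 arrays an r this large also occurs in pairs from different hosts.

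In the 18 hosts with 3 circRNAs, the intensities of the 3 probes are described side by side. Dtnb, a dystrobrevin of the dystrophin complex, had mmu_circRNA_006216 at 11.59, mmu_circRNA_24560 at 8.75 and mmu_circRNA_003139 at 8.16 on average over the 6 arrays. The brightest and the dimmest of these share the donor end and a run of 23 probe bases, yet their r was -0.81. Stau2, which binds double-stranded RNA and carries it into dendrites, had mmu_circRNA_000040 at 11.10, mmu_circRNA_005382 at 9.84 and mmu_circRNA_19703 at 7.23. In both genes the 3 probes kept this order on all 6 arrays.

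Among the other synaptic hosts, Anks1b, a postsynaptic scaffold, had mmu_circRNA_010003 at 9.48 and its other rings at 6.22 and 6.18. Sv2b, a synaptic vesicle glycoprotein, ranged from 8.73 to 5.09, the latter detected on 3 of 6 arrays, and Adgrb3, an adhesion receptor of synapses, from 6.82 to 6.45. Cacna2d1, the alpha2delta calcium channel subunit, ranged from 7.52 to 6.35. Bbs9, part of the ciliary BBSome, had 1 bright ring at 9.40 and 2 others at 6.65 and 5.94. Ep300, a histone acetyltransferase, was dim throughout, with rings from 5.86 to 5.21, and so was Tpp2, a peptidase, from 5.96 to 5.24. Narrow ranges were found in Taf4a, a subunit of the general transcription factor TFIID, from 6.31 to 6.05, and in Pik3c2a from 5.88 to 5.62. Enah, an actin regulator, spanned 6.93 to 6.13 and Atrnl1, a relative of attractin, 6.38 to 5.41.

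**Figure D3:**
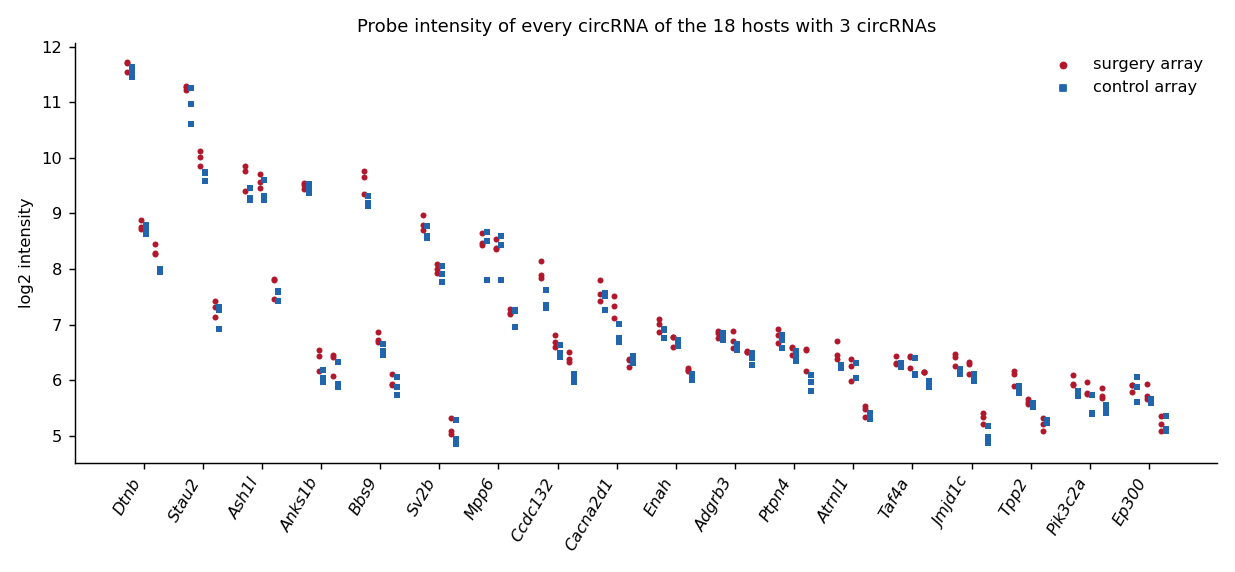
Log2 intensity (y axis) of all 3 circRNAs of each of the 18 hosts with 3, on the 3 surgery arrays (circles) and the 3 control arrays (squares), ordered by the brightest ring. Dtnb spans 11.59 to 8.16 and Stau2 11.10 to 7.23 on average, while the rings of Ep300 lie between 5.86 and 5.21.

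Surgery was compared with control circRNA by circRNA with limma over all 12499 tested probes. Because the list holds only circRNAs that the authors' own values put higher after surgery, higher values in the surgery group are what selected these circRNAs, and nothing is read from their direction. A fold change of at least 1.3 with an unadjusted p of at most 0.05 was reached by 25 of 306 circRNAs, all higher after surgery. Of these, 24 were well above background on a control array, and mmu_circRNA_34586 of Atrn was tested only because the surgery arrays detected it. The same thresholds were passed upwards by 4.19% of all tested probes and by 8.4% of the circRNAs of hosts with 1 circRNA in the list, against 8.17% here. The share was thus near that of the rest of the list.

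The surgery arrays lay above every control array in 95 of 306 circRNAs (31.0%). This was so in 13.5% of all tested probes and in 27.7% of the circRNAs of hosts with 1 circRNA. The log2 fold change had a median of 0.15 and ranged from -0.27 to 0.82, and in hosts with 1 circRNA the median was 0.13. The lowest value, -0.27, belonged to mmu_circRNA_19100 of Tmem161b, a membrane protein, whose control arrays spread from 5.58 to 6.53. An adjusted p under 0.05 was reached by 1 of 306 circRNAs, and upwards by 0.048% of all tested probes, or 6.

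The 25 circRNAs came from 23 hosts, and in 21 of these a single circRNA passed. In 2 hosts, Ankra2 and Wdr7, both circRNAs passed. Without control replicate 1 there were 44 such circRNAs and 4 such hosts, and without surgery replicate 1 there were 38 such circRNAs. Counted from each called circRNA to its partners, 4 of 28 partners from the same host were called too (14.3%), and 7.85% of partners from different hosts. The 25 were called with surgery replicate 1 included, and within slide row 1 all were above 0, from 0.05 to 0.92 on the log2 scale, and in 6 of the 25 that value differed from the full comparison by more than 1.5 times. No called circRNA, 0 of 25, belonged to a pair whose probes share 20 or more bases. Such pairs were 30 of the 180, and nothing is read from this count of 0. In 9 hosts every circRNA lay above control on all surgery arrays, namely Ankra2, Atp6v1h, Helz, Kif6, Mga, Pik3c2a, Specc1l, Usp15 and Wdr7. With 31.0% of the single circRNAs in this position, nothing is read from that count.

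Ankra2 gave mmu_circRNA_26813 (chr13:98266150-98272852) and mmu_circRNA_26814 (chr13:98267315-98268495), of which the second lies within the first. mmu_circRNA_26813 measured 6.27, 6.73 and 6.20 after surgery and 5.89, 5.77 and 5.94 in control. mmu_circRNA_26814 measured 6.52, 7.26 and 6.81 after surgery and 6.21, 6.49 and 6.43 in control. Neither overlapped between groups, and on both probes surgery replicate 2 was highest. The log2 fold changes were 0.53 ± 0.14 and 0.49 ± 0.17 (SE), with limma's adjusted p at 0.092 and 0.156. Without surgery replicate 2 they were 0.37 and 0.29. Within slide row 1, where surgery replicate 1 stands alone against the 3 control arrays, the differences were 0.40 and 0.14, so the second was smaller there by more than 1.5 times.

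Wdr7, which takes part in acidifying vesicles, gave mmu_circRNA_011823 and mmu_circRNA_31833, 2 rings on chromosome 18 that do not overlap. mmu_circRNA_011823 measured 5.94, 6.15 and 5.89 after surgery and 5.56, 5.29 and 5.35 in control. mmu_circRNA_31833 measured 9.09, 8.87 and 8.92 after surgery and 8.75, 8.44 and 8.53 in control. The probes differed by 3.07 in mean intensity, and both were higher after surgery without overlap. The log2 fold changes were 0.59 ± 0.11 and 0.38 ± 0.11 (SE), with limma's adjusted p at 0.057 and 0.111. Within slide row 1 they were 0.54 and 0.51.

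Pik3c2a, a class II phosphoinositide kinase, was the only host with 3 circRNAs in which all 3 lay above control on every surgery array. Their log2 fold changes were 0.31 ± 0.12, 0.27 ± 0.09 and 0.21 ± 0.09 (SE), and 0 of the 3 reached a fold change of 1.3. In Ccdc132, an endosomal recycling gene now named Vps50, 1 of 3 passed, mmu_circRNA_39770, with a log2 fold change of 0.53 ± 0.12 (SE). The other Ccdc132 rings had log2 fold changes of 0.36 and 0.19. In Ptpn4, a tyrosine phosphatase, mmu_circRNA_003388 passed at 0.47 ± 0.13, and the other 2 rings had log2 fold changes of 0.10 and 0.09. Within slide row 1 the value of mmu_circRNA_003388 was 0.21 and that of mmu_circRNA_006083, 0.10 in the full comparison, was 0.0069.

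**Figure D4:**
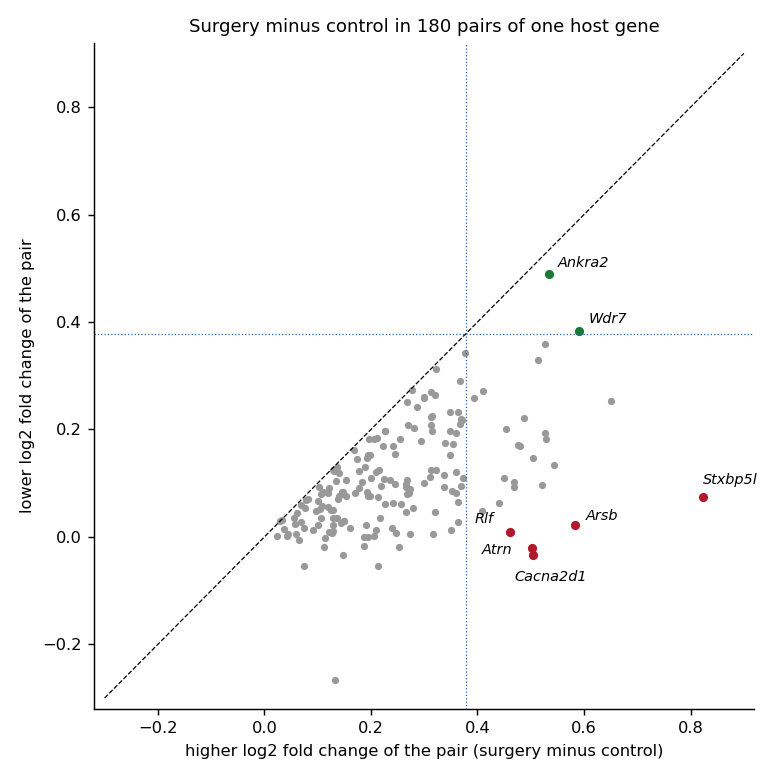
Log2 fold change (surgery minus control) of the circRNA with the higher value (x axis) against the one with the lower value (y axis) in each of the 180 pairs of one host; the dashed line marks equal values and dotted lines a fold change of 1.3. Only Ankra2 and Wdr7 (green) pass on both axes, and the 5 named pairs in red, which differ most, lie near 0 on the y axis.

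The log2 fold changes of 2 circRNAs of one host differed by a median of 0.12 (quartiles 0.048 and 0.20), and those of pairs from different hosts by 0.12 as well (0.117 against 0.125, quartiles 0.057 and 0.22 between hosts). With both ends in common the median was 0.055, with 20 or more shared probe bases 0.082, and without a common end 0.12. The difference between 2 circRNAs of a host did not overlap between the groups in 30 of 180 pairs (16.7%). This was so in 13.9% of the pairs from different hosts. With no normalization between arrays the order was the reverse, at 21.1% within hosts and 29% between them.

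The 5 largest such differences were found in Stxbp5l, Arsb, Cacna2d1, Atrn and Rlf. In Atrn the value rests on a ring that was not above background in control, so its size and its place among the 5 are uncertain. These pairs were picked for their difference, so it is described and not tested. With 3 arrays against 3 the smallest exact two-sided permutation p is 0.1, and every pair without overlap has it.

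In Stxbp5l, mmu_circRNA_29678 (chr16:37200575-37291063) measured 7.11, 7.26 and 7.18 after surgery and 6.49, 6.25 and 6.34 in control. mmu_circRNA_29656 (chr16:37121798-37216070), which overlaps it by 15496 bases, measured 6.17, 6.23 and 6.24 after surgery and 6.09, 6.53 and 5.79 in control. The first did not overlap between groups, and the second lay within the spread of its control arrays. mmu_circRNA_29678 had a fold change of 1.77 with an adjusted p of 0.036 in limma, the only one of the 306 under 0.05. Over the alternatives this adjusted p ranged from 0.0016 to 0.30, and it was under 0.05 in 7 of 17. The log2 fold change was 0.77 to 0.89 when each array was left out in turn, and 0.75 within slide row 1. mmu_circRNA_29656 had a log2 fold change of 0.07 ± 0.16 (SE), and of 0.030 within slide row 1.

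Arsb encodes a lysosomal sulfatase. mmu_circRNA_26717 (chr13:93790038-93807703) measured 6.98, 6.92 and 6.91 after surgery and 6.40, 6.36 and 6.30 in control. mmu_circRNA_26721 (chr13:93862086-93862330), 54382 bases downstream, measured 7.31, 7.09 and 7.08 after surgery and 7.18, 6.94 and 7.29 in control. The first was separated by more than its spread, at a log2 fold change of 0.58 ± 0.09 (SE), and the second was not, at 0.02 ± 0.12. Within slide row 1 the values were 0.62 and 0.18.

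In Cacna2d1, mmu_circRNA_38126 (chr5:16299452-16328044) measured 7.12, 7.52 and 7.34 after surgery and 7.02, 6.69 and 6.76 in control. mmu_circRNA_38123 (chr5:16212875-16246797) measured 6.37, 6.24 and 6.38 after surgery and 6.44, 6.34 and 6.31 in control. The log2 fold changes were 0.50 ± 0.13 and -0.03 ± 0.09 (SE), and the first was 0.29 within slide row 1. The third ring, mmu_circRNA_006797, overlaps mmu_circRNA_38126 by 28117 bases and had a log2 fold change of 0.15 ± 0.12.

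Atrn encodes attractin, a protein of the cell surface. mmu_circRNA_34586 (chr2:130944881-130964928) measured 5.69, 5.74 and 5.61 after surgery and 5.36, 5.04 and 5.14 in control. None of these control values was marked as well above background. They lay at or above the lowest intensity so marked on each control array (5.32, 5.04 and 5.08), so that floor gives no bound. The fitted fold change was 1.42, but its size is uncertain and nothing is read from it. mmu_circRNA_34582 (chr2:130933385-130947727) stayed between 5.44 and 5.52 on all 6 arrays.

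In Rlf, mmu_circRNA_003194 (chr4:121170617-121190258) measured 7.08, 6.98 and 6.92 after surgery and 6.69, 6.41 and 6.50 in control. mmu_circRNA_37545 (chr4:121159191-121190258), which has the same acceptor end, measured 5.32, 5.49 and 5.36 after surgery and 5.42, 5.32 and 5.40 in control. The brighter ring had a log2 fold change of 0.46 ± 0.10 and the dimmer 0.01 ± 0.09 (SE). The dimmer was detected on 5 of 6 arrays. It lay near the lowest intensity marked as well above background on control replicate 1 (5.32), so a change in it could be missed.

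**Figure D5:**
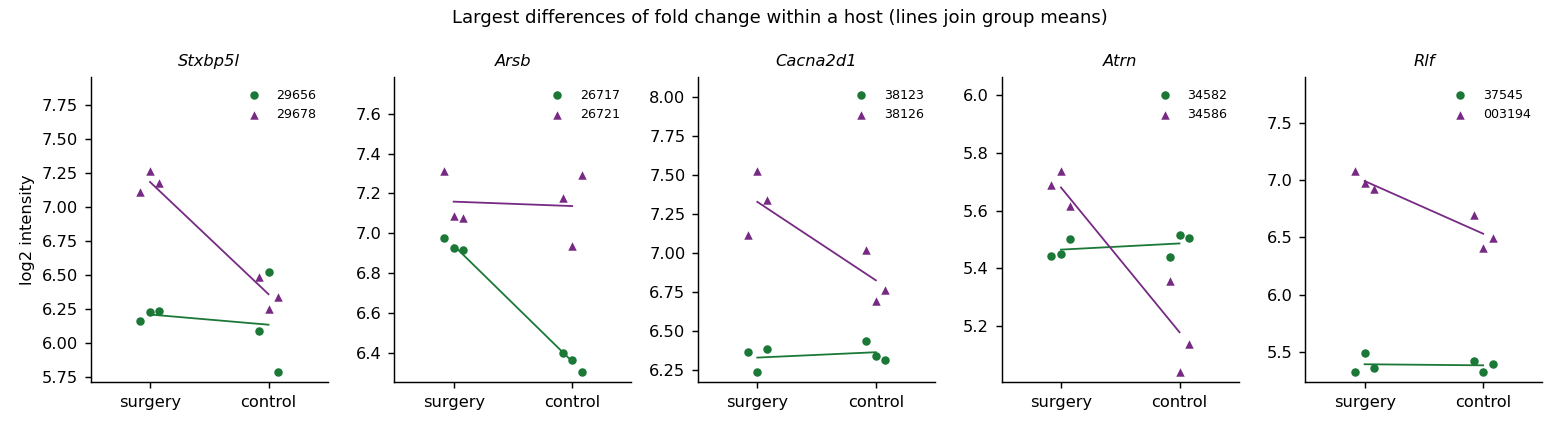
Log2 intensity (y axis) of 2 circRNAs of one host on the 3 surgery and 3 control arrays for the 5 pairs with the largest difference in fold change; circles and triangles are the 2 circRNAs, named by their numbers, and lines join group means. In each host 1 ring is higher after surgery on all arrays, for example 7.11 to 7.26 against 6.25 to 6.49 in Stxbp5l, and the other overlaps between groups.

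The hosts were also grouped by the role of the gene, from lists chosen with earlier results of these data known. The counts below stand beside 8.17% of the 306 circRNAs, 8.4% of those of hosts with 1 circRNA and 4.19% of all tested probes, and nothing particular to a group is read from them. Of 34 circRNAs from 15 genes of synapse and ion channels, 4 passed the fold change and unadjusted p (11.8%), and the median log2 fold change was 0.14. They came from Stxbp5l, Cacna2d1, Slc8a1 and Cttnbp2, a cortactin-binding protein of dendritic spines. The Slc8a1 ring that passed, mmu_circRNA_31030, was detected on only 4 of 6 arrays, so the size of its fold change is uncertain. Grin2b, an NMDA receptor subunit, did not pass, with 7.30 ± 0.10 after surgery and 6.95 ± 0.09 in control for mmu_circRNA_000233 (SD, n = 3), a log2 fold change of 0.35. Its other ring, mmu_circRNA_40969, measured 6.39 ± 0.08 and 6.30 ± 0.05.

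Of 30 circRNAs from 14 genes of membrane traffic and autophagy, 5 passed (16.7%), with a median of 0.20. They belonged to Wdr7, Ccdc132, Agfg1 and Ap2b1, an adaptor subunit of clathrin coats. The Ap2b1 ring mmu_circRNA_19028 overlapped between groups, and its log2 fold change of 0.39 was 0.050 within slide row 1. Of 28 circRNAs from 13 genes of kinases, phosphatases and signalling, 3 passed (10.7%), in Ankra2 and Ptpn4, with a median of 0.13.

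Chromatin and transcription was the largest of the named groups, with 60 circRNAs from 28 genes, and 2 passed (3.33%), in Rlf and Eya3, with a median of 0.17. The host with the highest mean log2 fold change here was Aff4, a scaffold of the super elongation complex. Its rings had log2 fold changes of 0.38 ± 0.12 and 0.34 ± 0.13 (SE). The second, mmu_circRNA_010522, was 0.23 to 0.47 when each array was left out in turn. Of 29 circRNAs from 13 genes of the cytoskeleton and its regulators 2 passed (6.90%), in Specc1l, which links actin and microtubules, and in the kinesin Kif6. The Specc1l ring mmu_circRNA_22225 measured 7.45 ± 0.26 after surgery and 6.80 ± 0.21 in control (SD, n = 3), or 0.92 apart within slide row 1, and the short mmu_circRNA_001877 inside it 6.14 ± 0.09 and 5.88 ± 0.06.

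Of 19 circRNAs from 9 genes of adhesion and axon guidance 2 passed (10.5%), in Plxdc2 and in Atrn. The Atrn ring was tested only because the surgery arrays detected it, so nothing is read from its passing. Of the 2, only 1 was well above background in control. The Plxdc2 ring mmu_circRNA_008098 measured 7.83 ± 0.02 after surgery and 7.31 ± 0.02 in control, and mmu_circRNA_33007 measured 5.07 ± 0.16 and 4.97 ± 0.17 (SD, n = 3). The latter was detected on 3 of 6 arrays, and its log2 fold change of 0.097 was -0.089 within slide row 1. Of 23 circRNAs from 11 genes of RNA binding and ribosome assembly 2 passed (8.70%), in Prrc2b and Strbp, with a median of 0.15. The Prrc2b rings had log2 fold changes of 0.49 ± 0.10 and 0.22 ± 0.11 (SE), and within slide row 1 the second was 0.079. The Strbp ring mmu_circRNA_19242 was 0.45 in the full comparison and 0.10 within slide row 1.

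Of 26 circRNAs from 13 genes of ubiquitin and SUMO 1 passed (3.85%), mmu_circRNA_33794 of the ubiquitin ligase Ubr3, at 6.69 ± 0.03 after surgery and 6.17 ± 0.14 in control (SD, n = 3). Its other ring, mmu_circRNA_33797, had a log2 fold change of 0.33 ± 0.14 (SE), and of 0.036 within slide row 1. The 57 circRNAs of the 28 remaining hosts included 4 that passed (7.02%), in Arsb, Mlip, R3hcc1l and the uridine kinase Uck2. The Uck2 rings, which share the acceptor end, had log2 fold changes of 0.41 ± 0.11 and 0.27 ± 0.15 (SE), and within slide row 1 the second was 0.080.

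The tissue was checked with circRNAs from neuronal host genes in the same list. All 9 circRNAs from 8 such genes were detected on all 6 arrays, and 1 was called. Their mean log2 intensities ranged from 6.11 to 11.33. The log2 of their summed intensity, in which the brightest weighs most, was 11.88 to 11.91 after surgery and 11.58 to 11.98 in control. The same value for 2 circRNAs from oligodendrocyte genes was 6.71 to 6.93 and 6.50 to 6.73, and for 6 circRNAs from genes of ciliated ependyma it was 8.56 to 8.68 and 8.39 to 8.58. These circRNAs come from the same list, chosen for higher values after surgery, so the ranges are a description and nothing is read from how the groups compare. Of the last 8 circRNAs, 0 were called, and 3 were detected on all 6 arrays. Their part in the results was not tested.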

How the data were processed

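Total RNA of 6 hippocampal samples, 3 per group, was digested with RNase R, labeled with Cy3 and hybridized to Arraystar mouse circRNA arrays. The authors deposited 1 scanner file per array, made with Agilent Feature Extraction 11.0.1.1, in which each spot has its median intensity, its processed intensity after background subtraction, and marks of 0 or 1 for spots well above background, not uniform or saturated. The files held no normalization between arrays. No file held read counts, and precision is limited by the number of arrays.

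Median intensities were quantile normalized over all spots and taken to log2, as the study's methods name quantile normalization and limma. Probes detected on at least 3 of 6 arrays were tested, 12499 of 14236. The groups were compared with limma 3.58.1 in R 4.3.3 (lmFit and eBayes), and p-values were adjusted by Benjamini-Hochberg over all tested probes. The fold change of 1.3 and p of 0.05 are the methods' thresholds. On simulated data of 12499 probes with 200 changed, an adjusted p under 0.05 found 56.7% of 1.5-fold and 91.0% of 2-fold changes in the comparison of surgery with control. With the t-test these shares were 8.96% and 37.3%. The simulated noise followed limma's own fit and held no effect of array or slide row, so the shares may be lower in the real data.

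Host gene, position and probe sequence came from the array annotation that accompanies the study's list of circRNAs higher in the surgery group. Its other columns hold the authors' own fold changes and p-values and were not used. Pairs of circRNAs were compared by mean intensity, by log2 fold change and by Pearson's r over the 6 arrays with group means removed (Python 3.11.15, pandas 2.3.3, scipy 1.17.1). Gene symbols were matched to RefSeq GRCm38. Hosts on chromosomes X and Y, and circRNAs without a named host, were left out.

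The 34 hosts named by rule were those with a circRNA at an adjusted p under 0.05, with all circRNAs past both thresholds, with both junction ends in common, with 3 circRNAs, the 5 pairs with the largest difference without overlap, and the host with the largest mean log2 fold change in each group of roles. Other hosts were named after their values were seen. The members and all lists were chosen with earlier results of these data known. Alternatives were other normalizations, background corrections and filters, the methods' t-test, blocks for slide row and replicate number, other pair sets, and each array left out.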

Additional observations from a re-analysis of the deposited data

How the results depend on the processing

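The 25 circRNAs past both thresholds became 67 with no normalization between arrays, 40 with the processed signal scaled to the 75th percentile, 13 after normexp with offset 50 and 41 with slide row as a block. Leaving out each array gave 26 to 44, with 44 without control replicate 1 and 38 without surgery replicate 1. The 1 circRNA at an adjusted p under 0.05 became 10 with no normalization, 2 with cyclic loess, 4 after normexp with offset 16 and 0 with the 75th percentile, normexp with offset 50, detection on all 6 arrays, the methods' t-test or slide row, and 0 to 6 when each array was left out, with 6 without control replicate 1. Hosts with all circRNAs past both thresholds, 2 as reported, numbered 10 with no normalization, 4 with slide row, 1 with the 75th percentile, normexp with offset 50, detection on all 6 arrays or the methods' t-test, and 1 to 4 when each array was left out. The cause was not tested. Pairs whose difference did not overlap, 30, fell to 16 with detection on all 6 arrays, where fewer pairs remain, and numbered 38 to 57 with an array left out, where 3 against 2 arrays separate more easily. With no normalization they made up 21.1% within hosts and 29% between hosts, the reverse of 16.7% and 13.9%.

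The median difference in mean intensity, 0.54 within hosts and 0.87 between them, was 0.84 and 1.44 with the 75th percentile, 0.38 and 0.62 after normexp with offset 50, and 0.58 and 0.95 with offset 16. It was 0.58 within hosts without pairs that share 20 or more probe bases, and 0.85 between hosts for detection on all 6 arrays. The median difference in log2 fold change was 0.22 and 0.25 with the 75th percentile, 0.079 and 0.094 after normexp with offset 50, 0.16 and 0.18 with slide row, 0.21 between hosts with no normalization, and 0.11 to 0.14 within and 0.13 to 0.15 between hosts with an array left out. The median r was 0.79 and 0.66 with no normalization, 0.53 and 0.35 with group means kept, and 0.26 to 0.42 and 0.01 to 0.09 with an array left out. Within hosts it was the higher under each of these.

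Same-numbered arrays correlated at 0.30, 0.26 and -0.08 in their deviations from the group means. Arrays with different numbers were not compared in this way, so whether the replicate numbers pair the arrays is not settled. With the replicate block, 25 circRNAs passed both thresholds and 13 the adjusted p, against 25 and 1 without it. Of 1445 values of named circRNAs under 17 alternatives, 61 had the other sign, and 5 of these belonged to circRNAs whose own value exceeds its SE. They were Atrnl1 mmu_circRNA_32800 at -0.020 with no normalization, Ep300 mmu_circRNA_003429 at -0.082, Taf4a mmu_circRNA_35045 at -0.037 and Taf4a mmu_circRNA_35049 at -0.000244 with the 75th percentile, and Mpp6 mmu_circRNA_010146 at -0.069 without control replicate 2, with values up to 0.36 when another array was left out. The 75th percentile moved the median of all tested probes to -0.15. Of the circRNAs of the 34 hosts named by rule, 0 called ones had the other sign, and the other called circRNAs were not covered.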
